A study of Rattus norvegicus with 12 samples.

Results

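The genes described here are Toll-like receptors and their closest partners: Tlr2, Tlr3, Tlr4, Tlr5, Tlr7, Tlr8, Tlr9, Cd14, Ly96 and Myd88. The 10 genes were looked up by symbol in a table of 32883 rat genes. Of them, 9 had a row in that table, all 9 passed the filter on low counts, and Ly96 was not analysed here. The 12 RNA-seq libraries came from whole rat lung, and each of the 3 groups had 4. Control rats form the first group. The second group, MCT-vehicle, received monocrotaline, a pyrrolizidine alkaloid whose products damage lung vessels, and the vehicle of ferrostatin-1. The third group, MCT-Fer-1, received monocrotaline and ferrostatin-1, an inhibitor of lipid peroxidation that blocks ferroptotic cell death. The labels give genotype WT and a time of 25 days for every library, and the design text gives 10 days of dosing for both monocrotaline groups. Strain, sex, age and the doses were not given in the sources used here. No vehicle is named for the controls, so monocrotaline and vehicle dosing cannot be told apart against Control.

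Toll-like receptors are membrane proteins whose leucine-rich outer part binds microbial molecules or products of injured tissue, and whose inner TIR domain gathers adaptor proteins. At the cell surface the protein of Tlr4, with its partner MD-2 (the product of Ly96), senses lipopolysaccharide handed over by CD14, that of Tlr2 senses lipoproteins, and that of Tlr5 senses flagellin. In endosomes the products of Tlr3, Tlr7, Tlr8 and Tlr9 sense nucleic acids. All of these except the Tlr3 product signal through the adaptor made from Myd88 to NF-kB, and those of Tlr3 and Tlr4 also signal through TRIF. In lung, macrophages, dendritic cells and epithelial cells carry different sets of these receptors.

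Library totals ran from 13654695 to 24016262 counts in MCT-vehicle, from 16640022 to 18229992 in Control and from 11601929 to 70627239 in MCT-Fer-1. Levels are given as CPM, the read count relative to the TMM-scaled library size. They are not corrected for transcript length, so the level of one gene is not compared with that of another. Surfactant, alveolar and airway markers were detected in every library, with 9 lung epithelial markers summing to 31453 to 46369 CPM. The libraries MCT-vehicle 2 and Control 4 stood apart in heart-muscle transcripts: 10 such markers summed to 427 and 276 CPM there, against 17.3 to 82.9 CPM in the other libraries. Results that rest on these libraries are therefore also given without them. Nothing in the labels states that each library came from its own rat, so p-values describe the spread between these libraries, which may be technical in part.

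The first comparison asked how monocrotaline with vehicle changed these genes. In MCT-vehicle, 6 of the 9 genes rose against Control and 0 fell. They were Tlr5, Tlr2, Cd14, Tlr3, Tlr7 and Myd88, with fold changes from 1.27 for Myd88 to 2.19 for Tlr5 (edgeR quasi-likelihood test, Benjamini-Hochberg adjusted p below 0.05 over all 15257 genes tested). Tlr4, Tlr8 and Tlr9 did not pass the test. Over all genes tested, 10.3% rose and 18.6% changed in either direction. The median log2 fold change of the 9 genes was 0.53, against 0.02 over all genes. In bulk tissue, more cells of a type and more RNA per cell cannot be told apart.

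**Figure D1:**
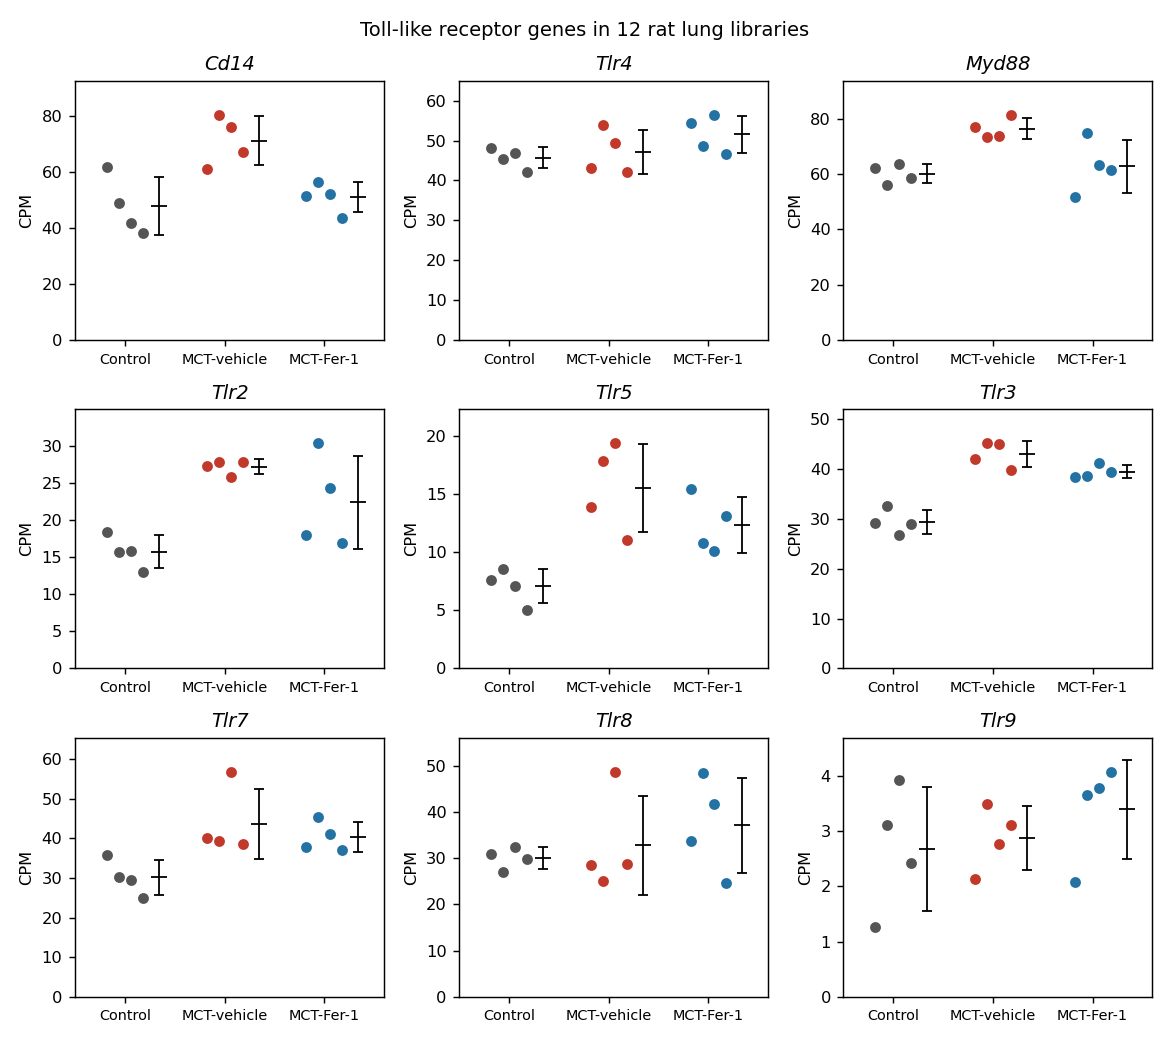
Level in CPM of each of the 9 genes in every library of Control (grey), MCT-vehicle (red) and MCT-Fer-1 (blue); points are libraries, and the bar beside them is the mean with its SD (n = 4). Tlr2, Tlr3, Tlr5, Tlr7 and Myd88 lay higher in all 4 MCT-vehicle libraries than in any Control library, while Cd14, which passed the test, overlapped in 1 library of each group, and Tlr4, Tlr8 and Tlr9 overlapped too.

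Among the surface receptors, Tlr5, the flagellin receptor gene, had the largest change of the 9. Its Control levels were 7.64, 8.58, 7.11 and 5.03 CPM in libraries 1 to 4. Its MCT-vehicle levels were 13.9, 17.9, 19.4 and 11 CPM, all above every Control library. The log2 fold change was 1.13 ± 0.21 (SE; edgeR adjusted p = 0.00307), from a mean of 7.09 ± 1.5 to 15.6 ± 3.79 CPM (SD, n = 4 per group).

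Tlr2, the lipoprotein receptor gene, stood at 18.4, 15.7, 15.8 and 13.0 CPM in Control libraries 1 to 4. In MCT-vehicle it stood at 27.3, 27.9, 25.8 and 27.8 CPM. The groups did not overlap, and the MCT-vehicle libraries differed little among themselves, with an SD of 3.54% of the mean. The log2 fold change was 0.79 ± 0.17 (edgeR adjusted p = 0.00633).

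Tlr4, the lipopolysaccharide receptor gene, stood at 48.2, 45.5, 46.9 and 42.2 CPM in Control and at 43.2, 53.9, 49.4 and 42.2 CPM in MCT-vehicle. MCT-vehicle 2 and 3 lay above every Control library, and the other two lay within the Control range. Its log2 fold change was 0.05, with a 95% interval from -0.15 to 0.25 (edgeR adjusted p = 0.768). Cd14, the gene of the co-receptor that hands lipopolysaccharide to the receptor complex, stood at 61.7, 49.0, 41.9 and 38.4 CPM in Control and at 61.0, 80.4, 76.1 and 67.2 CPM in MCT-vehicle. Control 1 was the highest control and lay just above MCT-vehicle 1, so these 2 groups touched. The log2 fold change of Cd14 was 0.57 ± 0.14 (edgeR adjusted p = 0.0137).

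Of the endosomal receptors, Tlr3, the gene of the double-stranded RNA receptor, had the smallest p of the 9. It stood at 29.3, 32.6, 26.7 and 29.1 CPM in Control and at 42.0, 45.2, 45.0 and 39.8 CPM in MCT-vehicle. All 4 MCT-vehicle libraries lay above all Control libraries, and the log2 fold change was 0.55 ± 0.07 (edgeR adjusted p = 4.18e-04).

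Tlr7 and Tlr8, genes of receptors for single-stranded RNA that neighbour each other on the X chromosome in the RefSeq rat annotation, are described together. Tlr7 stood at 35.9, 30.2, 29.5 and 25.0 CPM in Control and at 40.0, 39.2, 56.8 and 38.5 CPM in MCT-vehicle, with no overlap between groups (log2 fold change 0.53 ± 0.14, edgeR adjusted p = 0.0184). Tlr8 stood at 30.8, 26.9, 32.5 and 29.7 CPM in Control and at 28.6, 25.1, 48.7 and 28.8 CPM in MCT-vehicle. Only MCT-vehicle 3 lay above the controls for Tlr8, and its log2 fold change was 0.12 (95% interval -0.36 to 0.61, edgeR adjusted p = 0.741). MCT-vehicle 3 was the highest library of its group for both genes, and it also had the highest sum of macrophage markers, which is given below. That library was the lowest of its group for Tlr2.

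Tlr9, the gene of the receptor for unmethylated CpG DNA, had few reads, 23 to 65 per library in Control and 37 to 77 in MCT-vehicle. Its levels were 1.26 to 3.91 CPM and 2.14 to 3.49 CPM, so the Control range covered the other. The log2 fold change was 0.10, with a 95% interval from -0.59 to 0.80. Reads were few and the SD in Control was 41.9% of the mean, so a change of any size within that interval remains possible. Myd88, the shared adaptor gene, stood at 62.3, 56.1, 63.7 and 58.5 CPM in Control and at 77.1, 73.2, 73.5 and 81.4 CPM in MCT-vehicle. The groups were apart, and the log2 fold change was 0.34 ± 0.09 (edgeR adjusted p = 0.0235).

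In 5 of the 9 genes, all 4 MCT-vehicle libraries lay above all Control libraries, against 11.5% of all genes tested. Leaving out MCT-vehicle 2 and Control 4 lowered the number of genes that passed from 6 to 3. Over all genes the calls fell too, from 2843 to 1675, with fewer libraries in these 2 groups. Tlr3 (adjusted p = 0.00704), Tlr5 (0.0250) and Tlr2 (0.0462) passed then, while Tlr7 (0.0608), Myd88 (0.0812) and Cd14 (0.0927) did not. With 1 library left out at a time, the call of Myd88 was lost without Control 2 (edgeR adjusted p = 0.0718), Control 4 (0.0637) or MCT-vehicle 4 (0.0616). That of Tlr7 was lost without Control 3 (0.0508) or Control 4 (0.0589). Tlr2, Tlr3, Tlr5 and Cd14 passed in each of these 12 fits.

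**Figure D2:**
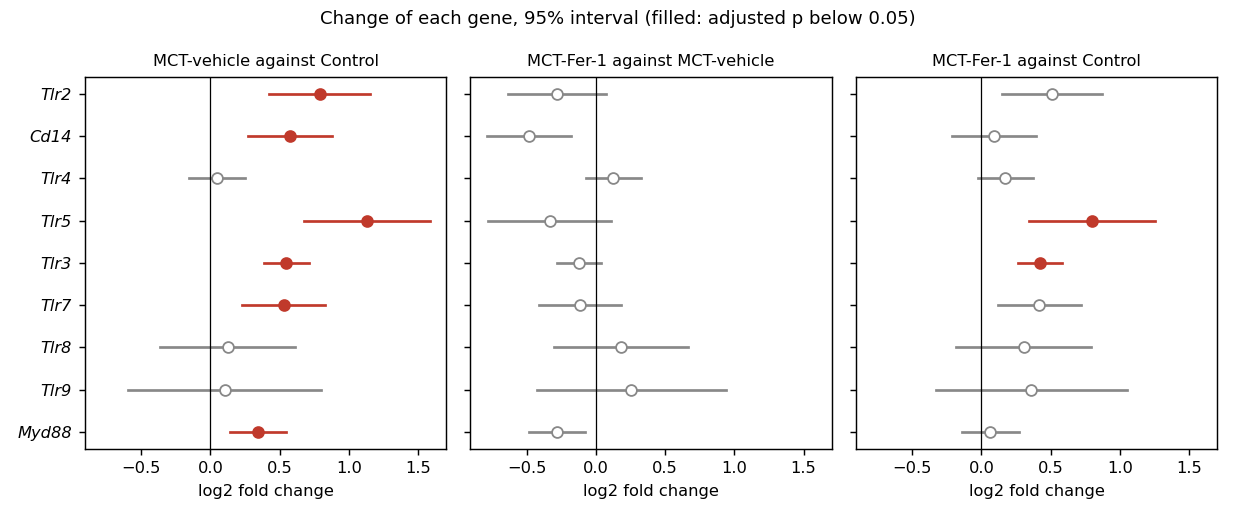
Log2 fold change of each gene (x axis) in the 3 comparisons, with its 95% interval, which is not adjusted for the number of genes; filled red points passed the edgeR test at an adjusted p below 0.05. In MCT-vehicle against Control 6 genes passed, in MCT-Fer-1 against MCT-vehicle 0, and in MCT-Fer-1 against Control Tlr3 and Tlr5.

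Promoter sequence is shown for Tlr3 and Myd88, which rose, and for Tlr4 and Tlr9, which did not pass, because for these 4 genes the 250 bases before the start given by RefSeq (build GRCr8) lie outside the span of the gene. RefSeq starts were found for 9 of the 10 genes. Letters are 5′ to 3′ on the strand of the gene, and capitals mark matches, on either strand, to the searched motifs. These were the NF-kB consensus and GAGGAA (a core bound by PU.1 and other ETS factors). The others were the interferon response element core (GAAA, any 2 bases, GAAA) and TGANTCA, where N is any base. TGANTCA covers the AP-1 site TGACTCA and other sequences. The windows are chr16:53554666-53554915 on the plus strand for Tlr3, chr5:85160997-85161246 on the plus strand for Tlr4, chr8:115743157-115743406 on the plus strand for Tlr9 and chr8:127956231-127956480 on the minus strand for Myd88.
Tlr3: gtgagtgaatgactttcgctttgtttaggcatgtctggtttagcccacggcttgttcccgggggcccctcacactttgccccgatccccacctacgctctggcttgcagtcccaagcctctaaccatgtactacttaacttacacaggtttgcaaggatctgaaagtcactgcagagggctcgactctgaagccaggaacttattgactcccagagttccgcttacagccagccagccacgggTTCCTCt
Tlr4: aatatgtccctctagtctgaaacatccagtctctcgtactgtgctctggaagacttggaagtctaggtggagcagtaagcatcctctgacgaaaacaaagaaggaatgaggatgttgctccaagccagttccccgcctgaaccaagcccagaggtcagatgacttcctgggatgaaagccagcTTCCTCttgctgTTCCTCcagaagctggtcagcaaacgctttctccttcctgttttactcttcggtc
Tlr9: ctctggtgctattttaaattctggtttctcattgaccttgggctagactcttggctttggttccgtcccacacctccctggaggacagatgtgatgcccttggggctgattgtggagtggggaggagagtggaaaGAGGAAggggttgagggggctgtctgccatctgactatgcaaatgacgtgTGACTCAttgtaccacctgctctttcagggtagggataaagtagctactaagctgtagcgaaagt
Myd88: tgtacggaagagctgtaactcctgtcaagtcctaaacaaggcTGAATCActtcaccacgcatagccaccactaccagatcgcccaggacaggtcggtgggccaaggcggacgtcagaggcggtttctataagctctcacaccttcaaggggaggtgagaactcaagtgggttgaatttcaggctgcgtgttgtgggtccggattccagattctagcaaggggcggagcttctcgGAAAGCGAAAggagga

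The Tlr3 window held GAGGAA on the opposite strand, which reads TTCCTC here, ending 2 bases before the start. The Tlr4 window held that motif 2 times, also on the opposite strand. The Tlr9 window held GAGGAA and TGACTCA. The Myd88 window held GAAAGCGAAA, from 16 to 7 bases before the start, and TGAATCA. The latter matches the pattern TGANTCA on both strands but is not TGACTCA. Among the 9 genes, GAGGAA was found in 6 (Tlr3, Tlr4, Tlr7, Tlr8, Tlr9 and Cd14), against 23.3% of all 33469 windows of this length. Of these 6 windows, that of Cd14 lies wholly within the span of its gene, and those of Tlr7 and Tlr8 lie within it over 102 and 12 bases. The NF-kB consensus was found in Tlr2 alone, as GGGGAATTCCC and GGGACGTCCC, against 6.33% of all windows, and the Tlr2 window lies within the span of the gene. The interferon response element core was found in Myd88 alone (3.41% of all windows), and TGANTCA in Myd88 and Tlr9 (6.34%). The motif GAGGAA was present both in genes that rose and in genes that did not pass, and a match describes letters only.

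The receptor genes and their partners were next set against each other within a library, since such ratios do not depend on library scaling. The ratios of Cd14 to Tlr4, Tlr2 to Tlr4 and Tlr7 to Tlr8 counts were chosen after the levels had been seen. Each sets a gene that rose in MCT-vehicle over one that did not pass. A higher ratio in MCT-vehicle than in Control therefore restates that choice. In all, 9 tests were made, over 3 pairs and 3 comparisons. An exact permutation test of 4 against 4 libraries can give no p below 0.0286.

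Cd14 reads per Tlr4 read numbered 1.28, 1.08, 0.893 and 0.909 in Control and 1.41, 1.49, 1.54 and 1.59 in MCT-vehicle. In MCT-Fer-1 they numbered 0.941, 1.16, 0.925 and 0.936. The MCT-vehicle libraries lay above every library of both other groups. Against Control the log2 ratio was higher by 0.55, and in MCT-Fer-1 against MCT-vehicle the difference was -0.61 (both exact two-sided permutation p = 0.0286, Benjamini-Hochberg adjusted over the 9 tests 0.0643). MCT-Fer-1 and Control differed by -0.06 (exact permutation p = 0.714, adjusted 0.714).

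Tlr2 reads per Tlr4 read averaged 0.343 ± 0.0303 in Control and 0.582 ± 0.0737 in MCT-vehicle (SD, n = 4 per group, no overlap, exact permutation p = 0.0286, adjusted 0.0643). In MCT-Fer-1 the ratio was 0.437 ± 0.132 and overlapped both other groups. Tlr7 reads per Tlr8 read numbered 0.843 to 1.164 in Control, 1.167 to 1.564 in MCT-vehicle and 0.937 to 1.505 in MCT-Fer-1. The first 2 ranges were apart by a narrow margin (exact permutation p = 0.0286, adjusted 0.0643), and no other comparison of this ratio had groups that were apart. None of the 9 tests passed after adjustment.

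**Figure D3:**
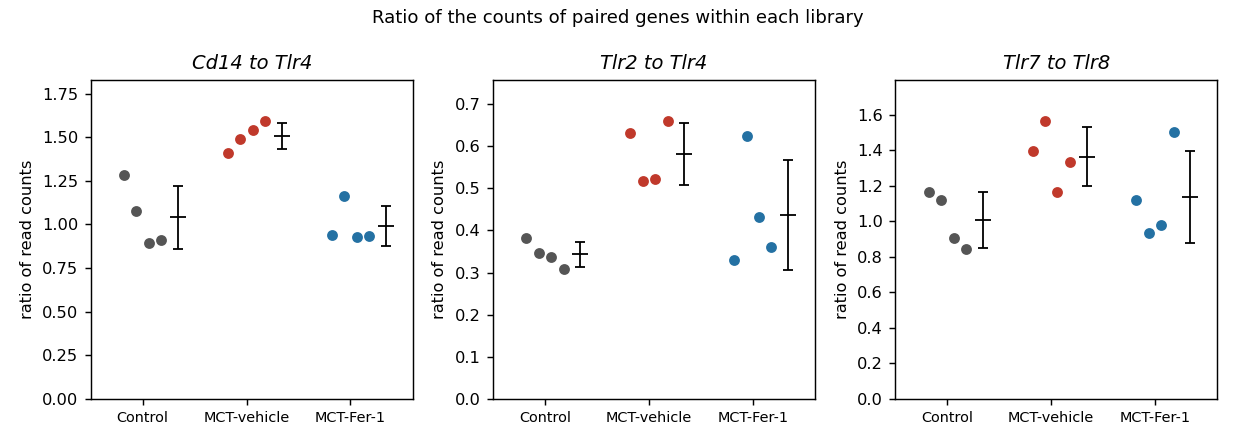
Ratio of the raw counts of paired genes in each library (y axis, from 0), by group; the bar is the mean with its SD (n = 4). The 4 MCT-vehicle libraries sit at 1.41 to 1.59 Cd14 reads per Tlr4 read, above all libraries of Control and MCT-Fer-1.

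The second comparison asked whether ferrostatin-1 altered these genes in monocrotaline rats. By edgeR none of the 9 genes passed in MCT-Fer-1 against MCT-vehicle, as was the case for 0% of all genes tested, and the smallest adjusted p among the 9 was 0.237, for Cd14. At an unadjusted p below 0.05 there were 2 of the 9, Cd14 and Myd88, both lower, against 6.17% of all genes lower and 12% in either direction. By DESeq2 0 of the 9 passed, with 244 of all genes, and by limma voom 0 of the 9, with 0 of all genes.

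Cd14 stood at 51.3, 56.5, 52.2 and 43.6 CPM in MCT-Fer-1 libraries 1 to 4. These lay below all 4 MCT-vehicle libraries, as did 3% of all genes, and within the range of Control. The log2 fold change was -0.48 ± 0.14, with a 95% interval from -0.79 to -0.18 that is not adjusted for the number of genes (edgeR adjusted p = 0.237; DESeq2 adjusted p = 0.0637). Over the fits that each left out 1 library, it ran from -0.55 to -0.41. Myd88 stood at 51.6, 74.8, 63.1 and 61.4 CPM in MCT-Fer-1, where MCT-Fer-1 2 overlapped MCT-vehicle and the others did not (log2 fold change -0.28 ± 0.09, edgeR adjusted p = 0.287).

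Tlr2 spread widely in MCT-Fer-1, at 18, 30.3, 24.4 and 16.8 CPM. MCT-Fer-1 1 and 4 lay in the Control range, MCT-Fer-1 2 lay above every MCT-vehicle library, and the log2 fold change was -0.28 (95% interval -0.64 to 0.08). Tlr5 stood at 15.4, 10.8, 10.1 and 13.1 CPM (log2 fold change -0.33, interval -0.78 to 0.11). Tlr3 was the steadiest of the 9 in MCT-Fer-1, at 38.5, 38.7, 41.3 and 39.4 CPM (log2 fold change -0.12, interval -0.28 to 0.04). Tlr7 stood at 37.7, 45.4, 41.0 and 37.0 CPM, with a log2 fold change of -0.11 (interval -0.41 to 0.18).

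The 3 genes with a positive log2 fold change were those that had not passed in MCT-vehicle against Control. The MCT-vehicle libraries enter both comparisons with opposite sign. A gene that is high in them therefore tends both to pass in the first and to be lower in the second. Tlr4 stood at 54.5, 48.6, 56.5 and 46.7 CPM (log2 fold change 0.13, 95% interval -0.07 to 0.33). Tlr8 stood at 33.6, 48.4, 41.8 and 24.6 CPM, a range as wide as that of MCT-vehicle (log2 fold change 0.18, interval -0.30 to 0.67). Tlr9 stood at 2.07, 3.64, 3.78 and 4.07 CPM (log2 fold change 0.26, interval -0.43 to 0.94). All 3 overlapped MCT-vehicle.

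Against Control, MCT-Fer-1 had 2 of the 9 genes higher and 0 lower, where 6.67% of all genes rose, 4.12% fell and 10.8% changed in either direction. Tlr3 rose by 0.42 ± 0.07 on the log2 scale (edgeR adjusted p = 0.00308) and Tlr5 by 0.80 ± 0.21 (adjusted p = 0.0299), each with all 4 libraries above all controls. Tlr7 was also higher in all 4 libraries but did not pass (log2 fold change 0.42, edgeR adjusted p = 0.0751), and neither did Tlr2 (0.51, adjusted p = 0.0740). Groups that were apart in this direction were seen in 3 of the 9 genes and in 10.6% of all genes. Cd14 and Myd88 had log2 fold changes of 0.09 (95% interval -0.22 to 0.40) and 0.06 (interval -0.14 to 0.27). Those of Tlr4, Tlr8 and Tlr9 were 0.17, 0.30 and 0.36, with edgeR adjusted p from 0.274 to 0.533. This comparison shares the Control libraries with the first and the MCT-Fer-1 libraries with the second, and those comparisons share the MCT-vehicle libraries. The 3 are therefore not independent.

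The call of Tlr5 in this comparison was lost without Control 1 (edgeR adjusted p = 0.0538), Control 3 (0.0692), Control 4 (0.0851), MCT-Fer-1 1 (0.0681) or MCT-Fer-1 4 (0.0646), and without MCT-vehicle 2 and Control 4 together (0.0877). That of Tlr3 held in each of these fits. Tlr7 passed by DESeq2 (adjusted p = 0.0400), by limma voom (0.0237), in the edgeR fit of these 2 groups alone (0.0371), and without Control 1 (0.0476) or MCT-vehicle 3 (0.0250). Tlr2 passed by DESeq2 (adjusted p = 0.0371) and without MCT-Fer-1 1 (0.0461) or MCT-Fer-1 4 (0.0276).

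The other genes of the pathway were taken from lists with 100 symbols, of which 91 genes were tested. In MCT-vehicle against Control 24 rose and 6 fell, or 26.4% and 6.59% of those tested, beside 10.3% and 8.28% of all genes. Their median log2 fold change was 0.19, against 0.02 over all genes. Without MCT-vehicle 2 and Control 4, 16 rose and 4 fell.

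Among further receptors and accessory proteins, 7 of 13 rose and 0 fell. Tlr12, one of the receptors for protozoan profilin in rodents, rose from 2.18 ± 0.688 to 8.88 ± 2.69 CPM (log2 fold change 2.02 ± 0.30, edgeR adjusted p = 7.37e-04), and Tlr11, its partner in that role, from 1.82 ± 0.710 to 4.97 ± 1.37 CPM (1.45 ± 0.27). Trem1, an amplifier of receptor signalling on myeloid cells, rose by 0.97 ± 0.18 on the log2 scale, and Unc93b1, which carries the endosomal receptors from the endoplasmic reticulum, by 0.57 ± 0.12. The others that rose were Cnpy3, a folding chaperone of the receptors (0.33), Ly86, whose product is a homologue of MD-2 (0.83), and Tyrobp, a myeloid signalling adaptor gene (0.50). The surface receptor genes Tlr1 (log2 fold change 0.61, edgeR adjusted p = 0.146) and Tlr6 (0.08, adjusted p = 0.754), whose products pair with that of Tlr2, and Tlr13, matched through another name (0.19, adjusted p = 0.268), did not pass.

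Of the adaptor and kinase genes below the receptors, 3 of 19 rose and 2 fell, and their median log2 fold change was 0.01. Those with the smallest p were Peli1, a ubiquitin ligase gene (-0.37), Tab2, a subunit of the TAK1 complex (-0.24), the kinase gene Irak1 (0.21) and the ubiquitin-conjugating enzyme gene Ube2n (0.29), with edgeR adjusted p from 0.0107 to 0.0225. Traf3, a signalling adaptor gene, also rose (0.42, edgeR adjusted p = 0.0237). Of 12 transcription factor genes, 1 rose and 1 fell (8.33% each, close to the shares of all genes). Irf8 rose by 0.85 ± 0.13 and Rela, an NF-kB subunit gene, fell by 0.20 on the log2 scale. Of 14 inhibitor and feedback genes, 3 rose and 2 fell (21.4% and 14.3%). Il1rl1, the IL-33 receptor gene, rose by 1.99 ± 0.19, and Bcl3, an atypical inhibitor of NF-kB, by 0.98 ± 0.27. Irak3, an inhibitory kinase homologue, rose by 0.42 ± 0.13. Sigirr, the gene of an inhibitory receptor, fell by 0.44 and the deubiquitinase gene Otud7b by 0.40.

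Of 20 tested genes that Toll-like receptor ligands are known to induce, 6 rose and 1 fell. The costimulatory ligand gene Cd80 rose by 2.69 ± 0.20, Cd86 by 0.95 ± 0.14, the neutrophil chemokine gene Cxcl3 by 0.81 ± 0.13 and the interferon-induced Cxcl10 by 1.87 ± 0.31 (edgeR adjusted p from 2.08e-05 for Cd80 to 0.00147 for Cxcl10). Lcn2, the gene of an iron-siderophore binding protein, and the chemokine gene Ccl4 also rose, by 1.99 ± 0.42 and 0.99 ± 0.31. The member that fell was the T-cell chemokine gene Ccl5 (log2 fold change -0.69, edgeR adjusted p = 0.0298), named after its value was seen. Another 13 did not pass. Those with the largest p were Il1a (0.39), Il1b (0.15), Il6 (0.92), Ptgs2 (-0.19) and Icam1 (-0.12), with edgeR adjusted p from 0.425 to 0.794. Nearer the threshold were Il12a (1.19), Ccl3 (0.77), Il12b (1.49), Cxcl1 (0.75), Ccl2 (1.22), Cxcl2 (1.21) and Cd40 (0.43). Their edgeR adjusted p ran from 0.0633 to 0.0998, and that of Nfkbiz (-0.38) was 0.154. The median log2 fold change of the 20 was 0.86. Tnf, Il10, Nos2 and Ifnb1 did not pass the filter on low counts and were not tested. Of 13 tested genes of endogenous proteins described as ligands, 4 rose and 0 fell. They were fibronectin (Fn1, log2 fold change 1.71 ± 0.21), biglycan (Bgn, 0.84 ± 0.11), tenascin C (Tnc, 1.12 ± 0.24) and versican (Vcan, 1.04 ± 0.26), all matrix proteins.

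**Figure D4:**
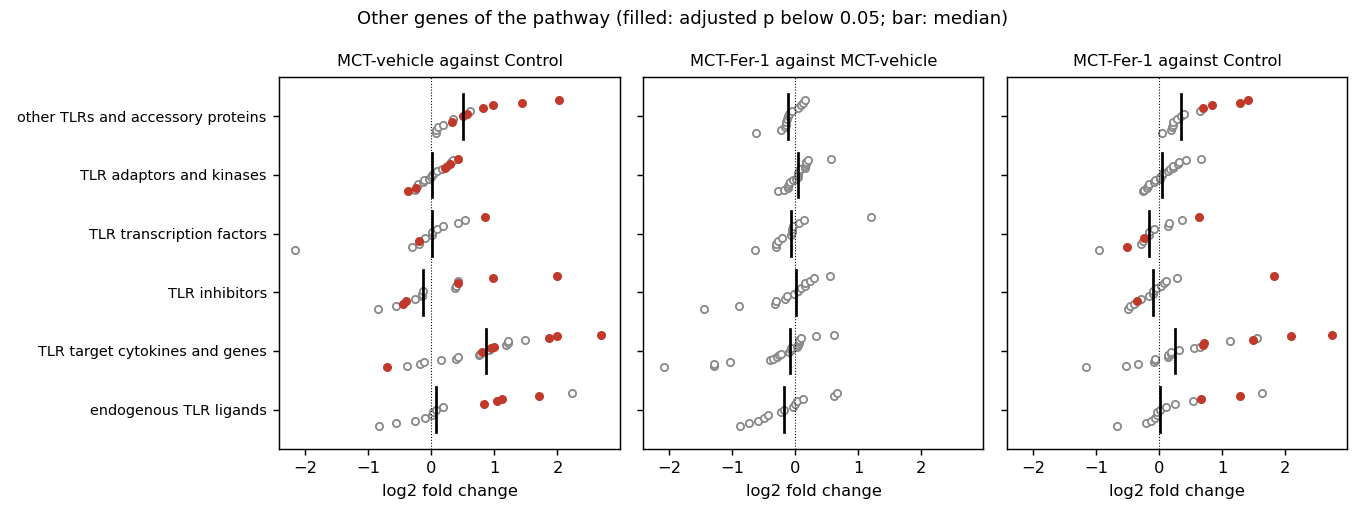
Log2 fold change (x axis) of each tested gene of the 6 pathway lists in the 3 comparisons; filled red points passed the edgeR test at an adjusted p below 0.05, and the black bar is the median of the list. In MCT-vehicle against Control 24 genes rose and 6 fell, and in MCT-Fer-1 against MCT-vehicle 0 passed.

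In MCT-Fer-1 against MCT-vehicle 0 of these 91 genes passed by edgeR, with 3 higher and 12 lower at an unadjusted p below 0.05 (5.85% and 6.17% of all genes), and a median log2 fold change of -0.05. By DESeq2 4 passed, all lower: Bcl3 (adjusted p = 1.30e-04), Cxcl1, a neutrophil chemokine gene (0.00163), Tnc (0.0179) and Socs1, a feedback inhibitor of cytokine signalling (0.0189). In the edgeR fit without MCT-vehicle 3, Bcl3 passed (adjusted p = 0.00977). By edgeR on all libraries Bcl3 had a log2 fold change of -1.44 ± 0.27 (adjusted p = 0.114), Cxcl1 of -1.28 ± 0.29 (0.168), Socs1 of -0.89 ± 0.22 (0.192) and Tnc of -0.87 ± 0.24 (0.220). Against Control, 13 of the 91 rose in MCT-Fer-1 and 3 fell, or 14.3% and 3.30%, among them Tlr11 (log2 fold change 1.29 ± 0.27), Tlr12 (1.40 ± 0.30), Cd80 (2.74 ± 0.20) and Il1rl1 (1.83 ± 0.19) higher and Sigirr (-0.35 ± 0.07) lower.

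Markers of cells that carry these receptors moved between the groups too. Of 14 macrophage markers tested, 10 rose in MCT-vehicle and 0 fell, led by C1qa (log2 fold change 2.04 ± 0.14) and Folr2 (2.62 ± 0.25). Lyz2, which alveolar type 2 cells also express, made up most of the macrophage sum. With Lyz2 the sums overlapped, at 22020 to 24485 CPM in Control, 22395 to 36147 CPM in MCT-vehicle and 22857 to 29705 CPM in MCT-Fer-1. Without it, the 13 other macrophage markers summed to 979 to 1101 CPM in Control and 1401 to 2179 CPM in MCT-vehicle. In MCT-Fer-1 these 13 summed to 1459.7 to 1627 CPM. In MCT-Fer-1 against MCT-vehicle 0 of the 14 passed by edgeR. At an unadjusted p below 0.05, 5 were lower and 0 higher, beside 6.17% and 5.85% of all genes. C1qa (log2 fold change -0.54), C1qb (-0.43) and C1qc (-0.59) were named after their values were seen. They had all 4 MCT-Fer-1 libraries below all MCT-vehicle libraries, as did 3% of all genes. The rest of the list overlapped, from Folr2 (-0.73) to Marco (0.34), with Csf1r (-0.02), Mrc1 (-0.03), Msr1 (0.04) and Mertk (0.21) between. Marco, a scavenger receptor gene of alveolar macrophages, had 0 reads in every Control library. It is among the 10 that rose, at only 0.487 ± 0.498 CPM (SD) in MCT-vehicle, and stood at 0.605 ± 0.263 CPM in MCT-Fer-1. These levels are near that of 3 reads in a library, 0.0420 to 0.259 CPM. The highest sum without Lyz2, 2179 CPM, was that of MCT-vehicle 3, the library with the highest Tlr7 and Tlr8. Within its group that library was also the highest for Tlr5. It was the lowest for Tlr2 (25.8 CPM) and not the highest for Cd14, Tlr3, Tlr4, Tlr9 or Myd88. Of 10 dendritic cell markers 4 rose and 0 fell. Among those that rose were Clec9a (1.87 ± 0.17) and Xcr1 (2.03 ± 0.20), markers of the conventional dendritic cells that are known to carry Tlr3. At an unadjusted p below 0.05, 6 were higher and 1 lower. The lower marker was Zbtb46 (log2 fold change -0.50, edgeR adjusted p = 0.0850), with all 4 MCT-vehicle libraries below every control. It was named after its value was seen. Dendritic markers summed to 153 to 198 CPM in Control, 284 to 313 CPM in MCT-vehicle and 243 to 303 CPM in MCT-Fer-1.

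Monocyte and neutrophil markers had 0 of 12 up and 1 down, with sums of 262 to 411 CPM in Control, 234 to 285 CPM in MCT-vehicle and 189.7 to 664 CPM in MCT-Fer-1. The highest of these was MCT-Fer-1 2, the library of that group with the highest Tlr2, Tlr7, Tlr8, Cd14 and Myd88. That library was not the highest of its group for Tlr3, Tlr4, Tlr5 or Tlr9. Markers of B cells and plasmacytoid dendritic cells, which carry Tlr7 and Tlr9, had 1 of 10 up and 0 down, and summed to 424 to 443 CPM in Control, 376 to 443 CPM in MCT-vehicle and 376 to 438 CPM in MCT-Fer-1. Of 9 endothelial markers 1 rose and 4 fell, and they summed to 4829 to 5221 CPM in Control, 2769 to 3471 CPM in MCT-vehicle and 3251 to 4570 CPM in MCT-Fer-1. Ptprc, expressed by all leukocytes, did not pass in MCT-vehicle (log2 fold change -0.02 ± 0.15, edgeR adjusted p = 0.932), at 279 ± 20.4 CPM in Control and 275 ± 49.9 CPM in MCT-vehicle. Per 100 Ptprc reads there were 5.08 to 6.62 Tlr2 reads in Control and 8.06 to 13.6 in MCT-vehicle, ranges that were apart. For Cd14 there were 13.7 to 22.2 against 21.9 to 32.9, ranges that touched. In MCT-Fer-1 there were 5.89 to 7.73 Tlr2 reads and 14.4 to 20.6 Cd14 reads. Between Control and MCT-vehicle, the ranges of Tlr3, Tlr5, Tlr7 and Myd88 were also apart, and those of Tlr4, Tlr8 and Tlr9 overlapped. The part of these cell types in the levels of the receptor genes was not tested.

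**Figure D5:**
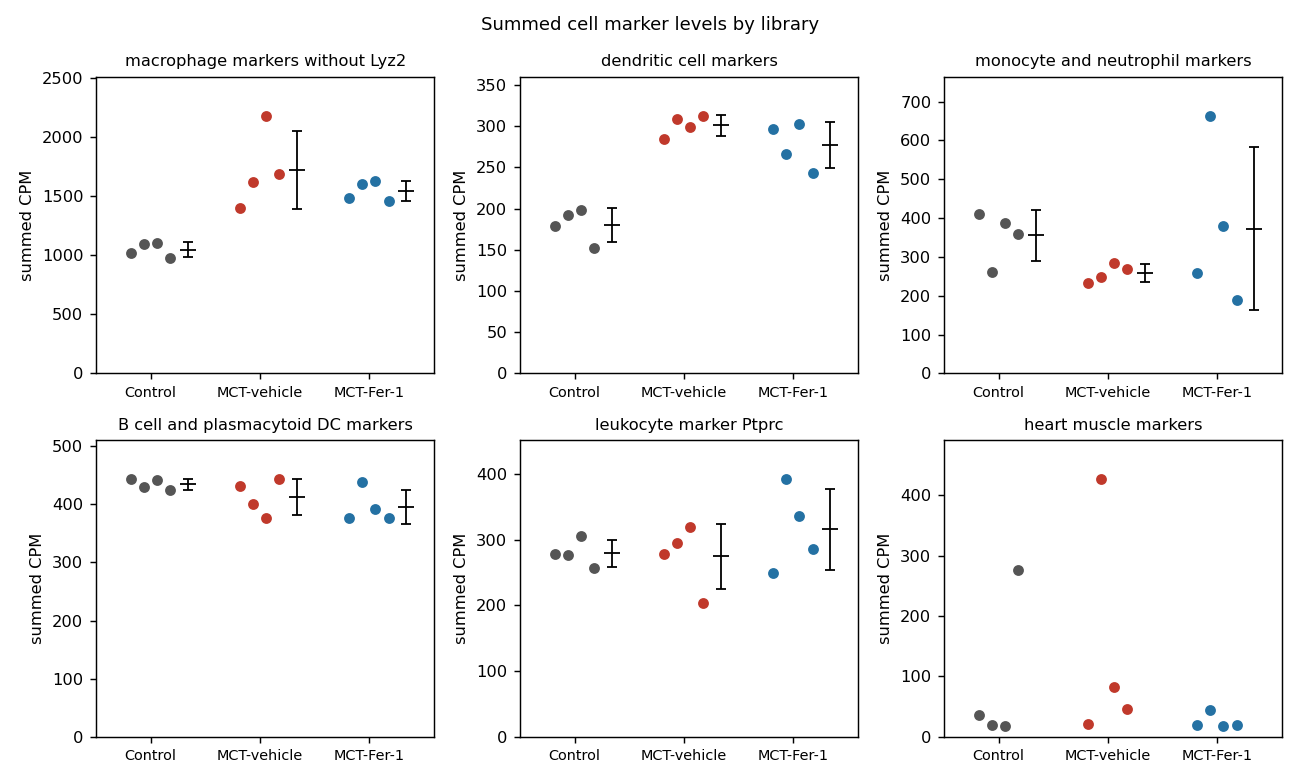
Summed CPM of each marker list (y axis, from 0) in every library, by group; the bar is the mean with its SD (n = 4), left out for heart muscle, where 1 library in each of 2 groups stood apart. Macrophage sums without Lyz2 and dendritic cell sums lay higher in all 8 monocrotaline libraries than in any control, and Ptprc overlapped. With Lyz2, which is not drawn, the macrophage sums overlapped.

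The genes whose profile was closest to each of the 6 that rose were found by the root mean square difference of centred log2 CPM over the 12 libraries. Nearest to Tlr2 were Adgre1 (difference 0.116), a macrophage marker, Ly86 (0.120) and the collagen gene Col3a1 (0.144), where the median over all genes was 0.459. Nearest to Tlr7 were Prcp, Gsto1 and Tyrobp (0.101 to 0.111, median 0.371), and nearest to Tlr3 were Ttc39c, Arhgap18 and Alg8 (0.0783 to 0.0821, median 0.339). For Tlr5 they were Slc2a9, Sema6b and Pask (0.186 to 0.237, median 0.593), and for Myd88 Snrpd1, Ifngr2 and Nifk (0.0811 to 0.0852, median 0.302). Cd14 had less close neighbours relative to its median of 0.395, Olfml1, Cerk and Tmem97 at 0.170 to 0.174. No gene was shared between these 6 sets of 3.

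In the table the Ensembl identifiers are ENSRNOG00000009822 for Tlr2, ENSRNOG00000021726 for Tlr3, ENSRNOG00000010522 for Tlr4, ENSRNOG00000022067 for Tlr5, ENSRNOG00000004249 for Tlr7, ENSRNOG00000045992 for Tlr8, ENSRNOG00000048161 for Tlr9, ENSRNOG00000017819 for Cd14 and ENSRNOG00000013634 for Myd88.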

How the data were processed

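Values of the 12 libraries were deposited as unnormalized read counts of each gene, per the file headers; 3 further columns, the authors' mean counts of each group, were not used. The aligner, counting tool, strand setting and genome build were not given in the sources used here. Groups came from the sample titles, and columns were matched to samples by the descriptions.

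Genes were kept by edgeR's filterByExpr (15257 of 32883, with 99.9% of counts), scaled by TMM, and fitted with 1 coefficient per group on all 12 libraries (robust quasi-likelihood, 9 residual degrees of freedom); calls were made at a Benjamini-Hochberg adjusted p below 0.05. The standard error was the log2 fold change divided by the square root of F. The floor of 3 counts was 0.0420 to 0.259 CPM and covers counting error only. Software was DESeq2 1.42.0, edgeR 4.0.16 and limma 3.58.1 in R 4.3.3, and the edgeR fit was tested on simulated counts. The smallest chi-square per degree of freedom between libraries of a group was 10.2, so no pair agreed within sampling noise.

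The genes and lists were chosen with earlier results of these data known. Named were all listed receptor genes and the 3 nearest profiles of each gene called. Of each pathway list up to 4 genes with the smallest p were named, and of each marker list up to 2. Some further genes, whether or not they passed, are named beside their list. Alternatives were other scalings, no filter, DESeq2, limma voom with quality weights, 2-group fits, a replicate block and leaving out libraries; thinning to the smallest total, leaving out MCT-vehicle 2 with Control 4, and the ratios were added after seeing the data.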

Additional observations from a re-analysis of the deposited data

Results flagged for a closer look

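In 36 sets of 4 libraries (9 genes and 3 ratios in 3 groups), 3 held a library far from the other 3, with a gap to its nearest neighbour, as a share of the whole range, above Dixon's 95% critical value; chance flags about 1 in 20 such sets. MCT-vehicle 3 had 56.8 CPM of Tlr7, where the other MCT-vehicle libraries had 38.5 to 40.0. The same library had 48.7 CPM of Tlr8, where the others had 25.1 to 28.8. It also had the highest macrophage marker sum of the 12 libraries, 2179 CPM without Lyz2, but the lowest Tlr2 of its group. The part of these cells in the values was not tested. MCT-Fer-1 2 had 1.16 Cd14 reads per Tlr4 read, where the other MCT-Fer-1 libraries had 0.925 to 0.941.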

How the results depend on the processing

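For the receptor genes, 175 of 189 fold changes against Control in MCT-vehicle, 188 of 189 in MCT-Fer-1 against MCT-vehicle and 173 of 189 in MCT-Fer-1 against Control kept direction and side of the threshold over 21 alternatives. Leaving out 1 library at a time gave 4 to 6, 0 to 0 and 1 to 3 receptor genes called, 24 to 33, 0 to 1 and 14 to 19 pathway genes, and 2021 to 2860, 0 to 41 and 977 to 1714 genes in all, in that order of comparisons; the 0 to 41 reached 41 without MCT-vehicle 3. Without MCT-vehicle 2 and Control 4, 3 and 1 receptor genes were called against Control in MCT-vehicle and MCT-Fer-1, 20 and 14 pathway genes, and 1675 and 978 genes in all, with fewer libraries; Tlr4 and Tlr9 then had log2 fold changes of -0.065 and -0.054 in MCT-vehicle against Control. DESeq2 called 4 receptor genes in MCT-Fer-1 against Control, and 4 pathway genes and 244 genes in all in MCT-Fer-1 against MCT-vehicle, where the fit of these groups alone called 1 gene; the cause was not tested. Values that turned sign when 1 library was left out were, in MCT-vehicle against Control, Tlr4 (-0.026 to 0.092), Tlr8 (-0.12 to 0.23) and Tlr9 (-0.13 to 0.34), in MCT-Fer-1 against MCT-vehicle Tlr7 (-0.17 to 0.038), and in MCT-Fer-1 against Control Cd14 (-0.0019 to 0.24) and Myd88 (-0.031 to 0.14), none of them called. The ratio of Cd14 to Tlr4 differed by 0.48 to 0.66 and by -0.69 to -0.58 (log2) in the first and second comparison.

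Replicate numbers did not pair the libraries: deviations of same-numbered libraries correlated at -0.06 to 0.10, and 4 of 12 libraries correlated best with their own number. With the replicate number as a block, 6, 0 and 2 receptor genes, and 2812, 0 and 1676 genes in all, were called in the 3 comparisons. Of the 9 genes, Tlr9 had the fewest reads, 23 to 291 per library.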
